A study of Homo sapiens with 32 samples.

Results

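Gene desert bins are 10-kb stretches of chromosomes 1 to 22 that lie more than 500 kb from the span of any protein-coding gene of the RefSeq GRCh38 table, between the first and the last such gene of their chromosome, and that carried an H3K27me3 island in at least 1 of 16 libraries. There were 9049 of them among 118566 covered bins, or 7.63% of the covered bins, and they added up to 90.5 Mb. They came from 31192 bins at that distance, of which 22143 held no island in any library, so 29.0% of distant bins were covered against 44.2% of the 247747 bins nearer to genes. The bins were selected on measured values, since an island in at least 1 library was required, and the share covered is therefore a description. The condition was set to leave out assembly gaps. The 22143 bins without an island therefore include gaps and centromeres beside sequence that lacks the mark, and these were not separated. By chromosome, 21 of 1521 distant bins were covered on chromosome 16 and 181 of 208 on chromosome 15. The bins fell into 255 deserts, each a run of bins between the same pair of neighbouring genes and named here by that pair. A desert held between 1 and 169 of these bins, with a median of 22, and the most distant bin lay 3706 kb from a gene.

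H3K27me3 is the trimethylated form of lysine on the tail of histone H3 that the Polycomb repressive complex PRC2 writes, with EZH2 as its catalytic subunit. The mark is dense over CpG islands of silent developmental genes, and it also lies in broad, shallow domains over gene-poor chromatin. An EZH2 inhibitor blocks new methylation, while methyl groups already in place are diluted by cell division and removed by demethylases.

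The cells were MDA-MB-231, an established line of triple-negative breast cancer, so each group is a treatment of the same line. The 4 groups were control (no treatment, per the labels), an EZH2 inhibitor (EPZ, written EP7 in the titles), a p38 MAP kinase inhibitor (P38i) and both together (combo), all at 24 h, with no dose given in the labels. Each had 4 ChIPmentation libraries for H3K27me3, in which the bound chromatin is tagged by a transposase on the beads, and 4 IgG libraries that were not analysed here. Whether replicates were separate cultures is not stated in the labels, so p-values measure only the spread between these samples, which may be technical.

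The lists held 51255 to 82320 islands per library on chromosomes 1 to 22 over 462 to 656 Mb. Read depth is unknown, and a list of islands says where the mark was called, not how much of it there was. Covered length with the EZH2 inhibitor was 532 ± 49.1 Mb (SD, n = 8) and without it 589 ± 64.5 Mb (SD, n = 8). Control replicate 4 covered 473 Mb, EPZ replicate 1 covered 462 Mb and EPZ replicate 2 covered 472 Mb, the shortest lists. The part of this shorter length in the results below was not tested, and values with all lists cut to the same length are given for the counts of deserts and for the deserts with the largest changes. Of genes that the line expresses, VIM, AXL, CD44, EGFR and ZEB1 carried no island in any library, and neither did EZH2 or MAPK14. The luminal genes PGR and FOXA1 were covered over 95.5 ± 2.47% and 79.2 ± 4.19% of their span in control (SD, n = 4), while ESR1 had 12.2% and CDH1 and GATA3 held no island. Of genes of other cell types, CD3E had 63.8%, RBFOX3 46.9% and SYT1 2.85% in control, and PTPRC held no island.

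Although no protein-coding gene lies near, 876 non-coding RefSeq genes touched desert bins, among them 567 long non-coding RNA (lncRNA) genes and 22 microRNA genes. The sequences below are shown because lncRNA promoters inside deserts ranged from no island in any library to full coverage in all 16, and because promoters rich in the dinucleotide CG were seldom covered. They are examples and not typical of each end: of the 70 promoters with no island 52 held at most 4 CG dinucleotides, as did 14 of the 16 with an island in all libraries. Each promoter runs from 250 bases before to 50 after the annotated start, in the RefSeq table of GRCh38.p14, and capitals mark the dinucleotide CG, which reads the same on both strands. The first pair had no island in any library and the second pair was fully covered in 16 of 16.
LINC02226, chr5:8457515-8457814, minus strand: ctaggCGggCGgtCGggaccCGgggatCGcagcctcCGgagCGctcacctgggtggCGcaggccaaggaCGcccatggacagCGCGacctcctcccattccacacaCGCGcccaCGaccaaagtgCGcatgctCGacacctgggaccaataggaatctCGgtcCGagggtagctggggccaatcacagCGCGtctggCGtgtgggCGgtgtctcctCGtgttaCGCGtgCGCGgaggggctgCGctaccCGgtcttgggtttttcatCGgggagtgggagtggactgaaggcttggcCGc
LOC105378477, chr10:108466348-108466647, minus strand: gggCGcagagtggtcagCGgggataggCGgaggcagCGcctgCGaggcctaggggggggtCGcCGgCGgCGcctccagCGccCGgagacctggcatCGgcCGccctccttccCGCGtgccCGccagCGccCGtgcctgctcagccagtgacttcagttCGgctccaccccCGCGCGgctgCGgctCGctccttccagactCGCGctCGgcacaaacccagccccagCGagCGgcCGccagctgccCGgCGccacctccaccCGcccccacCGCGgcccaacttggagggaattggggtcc
RMST, chr12:97464843-97465142, plus strand: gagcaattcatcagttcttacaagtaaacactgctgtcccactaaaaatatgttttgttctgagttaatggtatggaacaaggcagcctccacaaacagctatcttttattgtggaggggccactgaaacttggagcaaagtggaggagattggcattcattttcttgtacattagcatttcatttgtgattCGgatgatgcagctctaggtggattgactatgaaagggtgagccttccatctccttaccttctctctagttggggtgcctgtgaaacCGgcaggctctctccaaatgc
LINC01774, chr1:208972204-208972503, plus strand: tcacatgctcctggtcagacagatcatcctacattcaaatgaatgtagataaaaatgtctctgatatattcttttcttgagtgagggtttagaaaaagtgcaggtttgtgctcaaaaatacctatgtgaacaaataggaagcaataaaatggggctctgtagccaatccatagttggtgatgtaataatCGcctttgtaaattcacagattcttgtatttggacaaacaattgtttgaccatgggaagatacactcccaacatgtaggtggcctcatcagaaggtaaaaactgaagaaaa

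Of the printed promoters, LINC02226 held 31 CG dinucleotides and LOC105378477 held 35, against 2 in RMST and 1 in LINC01774. LINC02226 lay in the MTRR-SEMA5A desert in a bin with a mean coverage of 32.5% over the 16 libraries, so islands stood beside the promoter but not on it. LOC105378477 lay between SORCS1 and XPNPEP1 in a bin with a mean of 1.62%. RMST, a lncRNA of neural progenitors, and LINC01774 lay in bins with means of 99.2% and 97.8%.

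Desert promoters were poor in CG. Of 33725 promoters in the table, 41.4% held at least 20 CG dinucleotides, and of the 262 promoters in desert bins, all of lncRNA genes, 7 did, or 2.67%. Among 12307 promoters of lncRNA genes elsewhere the share was 21.6%. Of those 7, 2 had an island in any library and none had one in all 16, with a mean coverage of 6.25%. Of the 213 desert promoters with at most 4 CG dinucleotides, 161 had an island in at least 1 library and 14 in all 16, with a mean coverage of 29.5%. The bins around the 2 kinds were covered over 26.3% and 30.2% on average. The 7 include LINC02226 and MIR4458HG, whose promoters overlap on opposite strands, so they are not independent. These are counts of letters and islands, with no test, and how well reads map at these promoters was not tested.

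MicroRNA hairpins in desert bins lay in an island in 0 to 16 of the libraries. The mature forms below, 1 for each hairpin and the 5p form where both are listed, are those of the hairpins described after them, with the seed (bases 2 to 8) in capitals. No seed was shared between them.
hsa-miR-1251-5p: aCUCUAGCugccaaaggcgcu
hsa-miR-135a-2-3p: aUGUAGGGauggaagccaugaa
hsa-miR-4495: aAUGUAAAcaggcuuuuugcu
hsa-miR-4303: uUCUGAGCugaggacag
hsa-miR-2113: aUUUGUGCuuggcucugucac
hsa-miR-1263: aUGGUACCcuggcauacugagu
hsa-miR-99a-5p: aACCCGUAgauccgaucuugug
hsa-let-7c-5p: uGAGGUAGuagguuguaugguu

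The first 4 lie in the NEDD1-TMPO desert on chromosome 12, all 55 of whose distant bins were covered. Coverage of that desert was 77.2, 71.7, 64.3 and 53.6% in the control libraries, 53.5, 53.4, 57.0 and 72.2% with EPZ, 71.5, 68.5, 72.1 and 59.4% with P38i, and 55.3, 65.8, 69.1 and 67.3% with combo. The groups overlapped. RMST, whose span holds MIR135A2 and MIR1251, had 95.5 ± 4.83% of its span inside islands in control (SD, n = 4) and 85.6 ± 7.82% with EPZ (SD, n = 4). Coverage of this gene span was not tested between groups. The MIR135A2 hairpin lay in an island in 16 of 16 libraries and that of MIR1251 in 15. MIR4303 lay in one in 14 libraries. The MIR4495 hairpin lay in an island in all 4 control and all 4 P38i libraries, but in 1 of 4 EPZ and 1 of 4 combo libraries. Of the hairpins in desert bins it had the widest split by the EZH2 inhibitor. It was picked from among them and not tested, so this is a description. MIR99A and MIRLET7C, neighbours on chromosome 21 in the USP25-CXADR desert, were inside an island in 2 control libraries and in no other. MIR1263, between OTOL1 and SI, was in an island in 9 libraries, and MIR2113 in 5.

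Desert bins were covered less fully and less often than bins near genes. In 1708 of the 9049 bins, or 18.9%, only 1 library had an island, against 7.11% of the 109517 other covered bins. An island in all 16 libraries was found in 1307 desert bins, or 14.4%, against 45.1% of the others. The strongest class, covered over at least 50% of the bin in every library, held 463 desert bins (5.12%) and 24.2% of the others. The Jaccard index, the length covered in both libraries over the length covered in either, compared libraries of the same group. Its median was 0.43 (0.366 to 0.553 over 24 pairs) in desert bins and 0.64 (0.591 to 0.735) in the others. The index tends to be lower where less is covered, so it does not by itself show poorer agreement in deserts. Between groups the desert median was 0.413 over 96 pairs, close to the value within groups.

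**Figure D1:**
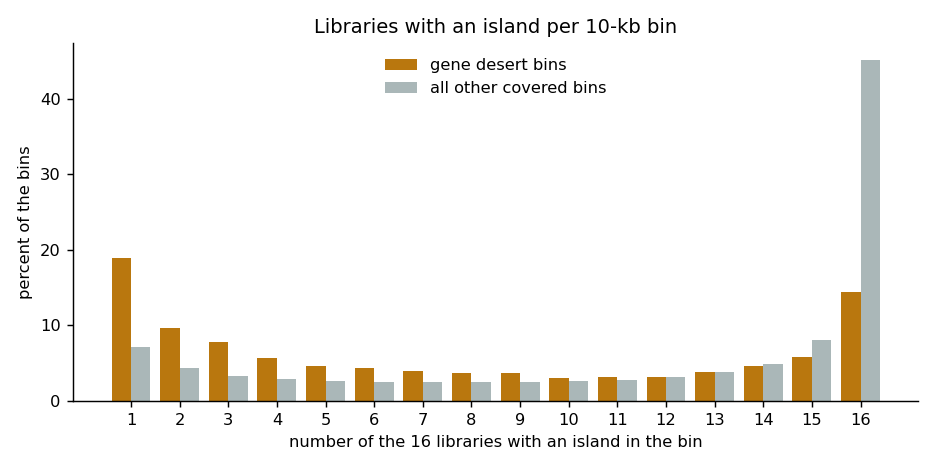
The horizontal axis is the number of the 16 H3K27me3 libraries that have an island in a 10-kb bin, and the vertical axis is the percent of the bins. Brown bars are the 9049 gene desert bins and grey bars the 109517 other covered bins: 18.9% of the desert bins have an island in 1 library and 14.4% in 16, against 7.11% and 45.1%.

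Mean coverage of desert bins was 29.1, 30.4, 27.1 and 19% in the control libraries and 19.2, 20.4, 24.4 and 29.4% with EPZ. With P38i it was 28.6, 25.8, 28.2 and 20.6%, and with combo 20.3, 23.2, 28.2 and 24.5%. All groups overlapped, and desert bins were below the other covered bins in each of the 16 libraries. Over all libraries the desert mean was 24.9 ± 3.99% (SD, n = 16) against 48.9 ± 5.42% for the other bins (SD, n = 16), and the ratio of the desert mean to the other mean ranged from 0.452 to 0.595. The group means differed by less than their spread: EPZ minus control was -3.02 percentage points (pooled SD 4.87), P38i minus control -0.583 (4.45) and combo minus control -2.35 (4.28). With and without the EZH2 inhibitor differed by -2.39 points (pooled SD 3.93), and by 1.2 points (1.73) with all lists cut to the length of the shortest. On those cut lists EPZ minus control was 0.749 points (1.5) and combo minus control -1.02 (1.49). P38i minus control was -2.68 (1.37) there, more than its pooled SD, and the 2 groups still overlapped. Islands in deserts were also narrower in every library, with a median width of 2.8 to 6.4 kb against 3.4 to 7.6 kb elsewhere.

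Coverage was lower with distance from genes beyond 100 kb. Over the 16 libraries it was 50.1 ± 5.54% in bins that overlap a protein-coding gene, 50.6 ± 5.54% up to 100 kb away, 45.0 ± 5.18% from 100 to 500 kb, 26.4 ± 4.05% in desert bins up to 1000 kb away and 19.3 ± 3.94% in the 1897 beyond that (SD, n = 16). The 500-kb line itself marked no step: desert bins 500 to 510 kb from a gene stood at 30.0 ± 4.06%, and bins from 490 to 500 kb at 31.1 ± 5.06% (SD, n = 16). Bins inside genes of at least 500 kb, which are also long stretches without another gene start, had 48.8 ± 5.45% (SD, n = 16). Desert bins that touch a lncRNA gene, 2339 in all, had 27.7 ± 5.85% in control (SD, n = 4), and the 6710 that touch none had 25.9 ± 4.88% (SD, n = 4). Within a library the bins that touch one were higher in 16 of 16, by 0.54 to 3.58 percentage points.

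**Figure D2:**
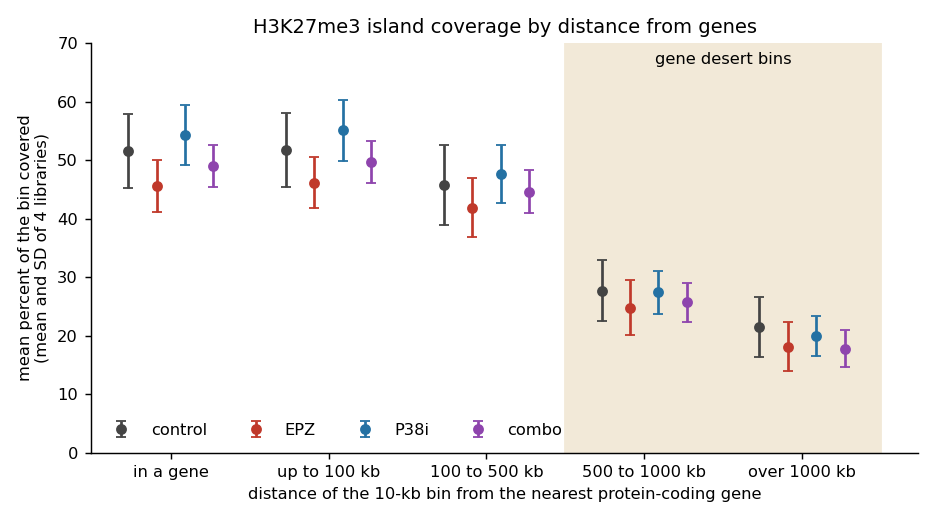
The horizontal axis gives classes of 10-kb bins by distance from the nearest protein-coding gene and the vertical axis the mean percent of a bin covered by islands. Points and bars are the mean and SD of 4 libraries per group, and the shaded classes are the gene desert bins, where control falls from 27.7% to 21.5% against 51.6% in genes.

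The deserts differed widely in level. Of the 176 with at least 10 member bins, 28 had a control mean under 5%, 84 one from 5 to 25%, 42 from 25 to 50%, 14 from 50 to 75% and 8 above that. The highest in control among deserts of at least 20 members were CDH26-CDH4 on chromosome 20, KIRREL3-ETS1 on chromosome 11, and PLXNA2-CAMK1G, RWDD3-PTBP2 and LMO4-PKN2 on chromosome 1. CDH4 encodes a cadherin, ETS1 a transcription factor, PLXNA2 a receptor for semaphorins, PTBP2 a neural splicing regulator and LMO4 a LIM-only transcriptional cofactor. CDH26-CDH4 was covered over 97.6, 94.2, 95.1 and 93.9% in the control libraries and over 95.1 to 98.1% in the other 12. KIRREL3-ETS1 had 96.4, 94.9, 94.9 and 92.4% in control, and its lowest value was 87.3% in EPZ replicate 2. In the 4 of these 5 that were tested, the difference between libraries with and without the EZH2 inhibitor did not pass, with values from -3.56 to -0.767 percentage points and adjusted p from 0.123 to 0.649 (limma). CDH26-CDH4 lay above the limit of 95% and was not tested.

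The lowest in control were CHORDC1-FAT3 and OR4C12-OR4C46 on chromosome 11, ZNF716-LOC124901649 and SPDYE21-AUTS2 on chromosome 7, and AMY1C-PRMT6 on chromosome 1. FAT3 encodes an atypical cadherin, OR4C46 an olfactory receptor and PRMT6 an arginine methyltransferase. AMY1C-PRMT6, with 126 members, had 0.905, 1.09, 1.36 and 0.635% in control and 0.825, 0.413, 0.27 and 0.682% with P38i. It had 5.08, 9.87, 7.81 and 7.27% with EPZ and 2.00, 5.14, 5.48 and 5.29% with combo, so the 8 libraries with the EZH2 inhibitor were all above the 8 without it. CHORDC1-FAT3 and ZNF716-LOC124901649 were split in the same way: the former had 1.45 to 7.72% with the inhibitor and 0 to 0.392% without, and the latter 2.91 to 13.4% and 0 to 1.64%. Means under 5% kept these 3 out of the test, and they were picked for low control values, so the difference is a description. Over all 2323 regions of at least 10 bins, with deserts beside 1-Mb windows of the other covered bins, the 8 libraries with the inhibitor were all above the others in 0.904% and all below in 1.42%. Among the 176 deserts, 8 were all above and 2 all below. Of the 86 regions with a mean under 5%, like these 3 deserts, 5 were all above (5.81%) and none was all below. Those 5 include these 3, which were the only ones all above among the 25 deserts at that level.

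**Figure D3:**
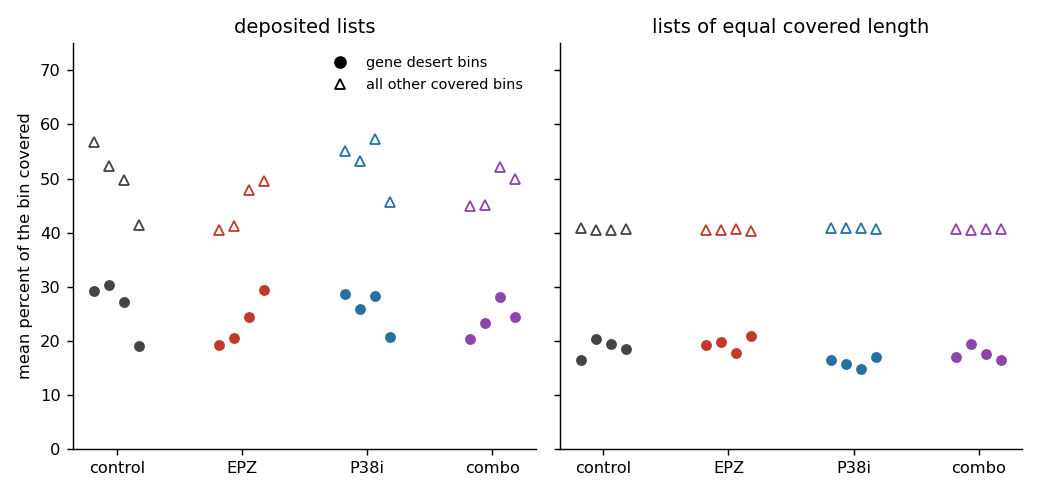
The vertical axis is the mean percent of a bin covered in each of the 16 libraries, by group, with replicates 1 to 4 from left to right. Circles are gene desert bins and triangles the other covered bins, from the deposited lists on the left, where desert means run from 19 to 30.4%, and with all lists cut to 462 Mb on the right, where they run from 14.8 to 20.8%.

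Single deserts were tested on their mean coverage in 1 limma fit over 2236 regions with a mean from 5 to 95%, of which 150 were deserts. Of the 176 deserts with at least 10 members, 25 fell below that range and 1 above it, and 79 deserts with 306 members were too small. The clearest comparison set the 8 libraries with the EZH2 inhibitor against the 8 without it, averaged over the presence of the p38 inhibitor (the main effect). At an adjusted p below 0.05, 16 of 150 deserts rose, against 3.09% of all regions tested, and 38 fell, against 35.3% of all regions. The median difference was -3.4 percentage points over deserts and -5.06 over all regions. The deserts that rose had a median control level of 7.79% and gained 4.36 to 14.3 points, and those that fell had a median control level of 22.8% and lost between 5.37 and 19.7 points. Of the 22 tested deserts under 10% without the inhibitor, 9 rose and 2 fell, and of the 22 at 50% or more, none rose and 5 fell. Other regions ran the same way, with 26.4% higher and 6.59% lower under 10%, and 0.409% higher and 30.6% lower at 50% or more. The libraries that set the level also enter the difference, so this is a description. Regions with a mean under 5% over the 16 libraries were not tested. A region under 5% without the inhibitor was therefore tested only if its libraries with it were higher. This filter favours rises at low levels. Leaving out any 1 of the 16 libraries left 38 to 76 deserts called.

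**Figure D4:**
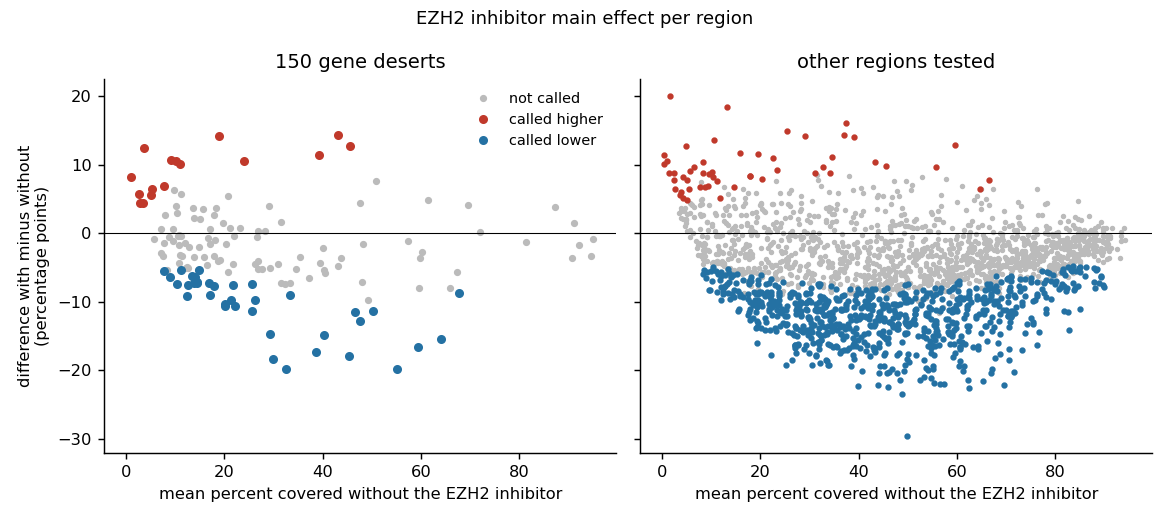
Each point is a region, with the mean percent covered over the 8 libraries without the EZH2 inhibitor on the horizontal axis and the difference, with minus without, in percentage points on the vertical axis. Red and blue points passed an adjusted p of 0.05 in limma: among the 150 deserts 16 were higher and 38 lower, and red points lie mostly at low levels.

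Coverage fell most in SLC8A1-PKDCC, MMS22L-POU3F2, NOX3-ARID1B, PCDH20-LOC112267897 and NDST4-TRAM1L1. SLC8A1 encodes a sodium-calcium exchanger, POU3F2 a neural transcription factor, ARID1B a SWI/SNF chromatin remodelling subunit, PCDH20 a protocadherin and NDST4 an enzyme of heparan sulfate synthesis. These genes give the deserts their names and lie more than 500 kb from the bins measured.

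MMS22L-POU3F2 (chr6:97790001-98330000, hg38, 44 members) holds MIR2113, printed above. It was covered over 41.4, 44.3, 41.0 and 19.7% in control and 30.4, 30.3, 33.4 and 19.4% with P38i. With EPZ it stood at 6.09, 8.23, 14.6 and 22.6%, and with combo at 9.68, 10.8, 22.7 and 7.32%. Control replicate 4 and P38i replicate 4 overlapped the highest libraries with the inhibitor. The main effect was -19.7 ± 3.56 percentage points (SE, adjusted p = 0.000514, limma), and -9.26 with lists of equal length (adjusted p = 0.0121).

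NOX3-ARID1B (chr6:156020001-156270000, 19 members) showed the same direction with no overlap. All 19 members touch the lncRNA gene LOC101928923. Control libraries had 28.4, 45.0, 38.6 and 19.9% and P38i libraries 25.5, 25.9, 31.9 and 24.0%, while EPZ libraries had 7.05, 10.9, 18.1 and 11.7% and combo libraries 8.21, 11.5, 13.8 and 10.9%. The main effect was -18.4 ± 3.04 points (SE, adjusted p = 0.000407, limma). With lists of equal length it was -7.76 points and did not pass (adjusted p = 0.0618).

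SLC8A1-PKDCC on chromosome 2, with all 52 of its distant bins covered, had 63.0, 60.5, 56.4 and 41.1% in control and 30.0, 30.5, 33.7 and 51.5% with EPZ. With P38i it had 67.5, 56.3, 59.7 and 37.4%, and with combo 25.6, 40.9, 40.9 and 30.6%. Replicate 4 was the lowest in control and P38i and the highest in EPZ, so the groups overlapped. The main effect was -19.7 ± 4.38 points (SE, adjusted p = 0.00186, limma), and with lists of equal length -7.95 points, which did not pass (adjusted p = 0.107). PCDH20-LOC112267897 on chromosome 13, with 114 members, ran from 37.0 to 55.2% in control, 20.4 to 42.7% with EPZ, 30.0 to 51.1% with P38i and 17.5 to 36.3% with combo. Its main effect was -17.9 ± 4.0 points (SE, adjusted p = 0.00199, limma) and -11.2 with lists of equal length (adjusted p = 0.00181). NDST4-TRAM1L1 on chromosome 4 ran from 24.4 to 54.1% without the inhibitor and from 13.8 to 37.2% with it (-17.4 ± 4.05 points, SE, adjusted p = 0.0025, limma), and had -9.8 with lists of equal length (adjusted p = 0.0223). The lncRNA gene LOC105370234 in the PCDH20-LOC112267897 desert was covered over 71.4 ± 7.37% in control, 35.4 ± 12.1% with EPZ, 59.5 ± 9.27% with P38i and 26.5 ± 18.0% with combo (SD, n = 4).

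Coverage rose most in RPIA-LOC124905368, DOK5-CBLN4, IRX1-ADAMTS16, HDGFL1-NRSN1 and TBX3-MED13L. RPIA encodes an enzyme of the pentose phosphate pathway, CBLN4 a cerebellin of synapses, IRX1 and TBX3 developmental transcription factors, and MED13L a Mediator subunit. HDGFL1-NRSN1 (chr6:23080001-23620000, 50 members) was nearly bare without the inhibitor, at 7.68, 2.08, 1.44 and 2.04% in control and 2.3, 4.04, 6.92 and 3.72% with P38i. It stood at 13.6, 16.7, 17.9 and 15.1% with EPZ and 15.3, 13.8, 21.9 and 15.8% with combo. The 2 sets of 8 did not overlap. The main effect was 12.5 ± 1.84 points (SE, adjusted p = 0.000255, limma), and 9.52 with lists of equal length (adjusted p = 0.000506). Without the inhibitor this desert averaged below the lower limit for testing. It was therefore tested only because its libraries with the inhibitor were higher. That filter favours a rise here, which limits what the adjusted p of this desert shows. Of its members, 25 touch the lncRNA gene LOC105374976, which had 3.28 ± 3.70% in control and 12.3 ± 2.24% with EPZ (SD, n = 4). The span of this gene was not tested by itself.

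DOK5-CBLN4 (chr20:55160001-55490000, 32 members) had 20.8, 21.0, 19.2 and 11.4% in control and 20.4, 23.1, 23.6 and 12.3% with P38i. All libraries with the inhibitor lay above these, at 26.6, 24.5, 39.8 and 31.4% with EPZ and 31.8, 26.8, 48.1 and 36.1% with combo. The main effect was 14.1 ± 3.25 points (SE, adjusted p = 0.00233, limma), and 15.5 with lists of equal length. IRX1-ADAMTS16 on chromosome 5 and TBX3-MED13L on chromosome 12, both next to developmental regulators, began at higher levels. IRX1-ADAMTS16 ran from 36.9 to 59.6% without the inhibitor and from 42.9 to 74.1% with it, with a main effect of 12.8 ± 4.22 points (SE, adjusted p = 0.0207, limma). TBX3-MED13L rose by 11.4 ± 4.04 points (SE, adjusted p = 0.0288, limma). With lists of equal length these were 18.9 and 19.4 points (adjusted p = 0.000143 and 6.28e-05), while the fit with the covariate of covered length gave 20.8 and 19.1. Both overlapped. Leaving out combo replicate 4 ended the call of IRX1-ADAMTS16 (adjusted p = 0.0541), and leaving out control replicate 3, EPZ replicate 3, P38i replicate 1, combo replicate 3 or combo replicate 4 ended that of TBX3-MED13L (highest adjusted p = 0.0609). RPIA-LOC124905368 on chromosome 2, with 18 of 59 distant bins covered, ran from 22.6 to 51.0% without the inhibitor and from 49.0 to 64.0% with it (14.3 ± 3.47 points, SE, adjusted p = 0.00316, limma), and had 19 with lists of equal length. How well reads map in this desert was not tested.

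KHDRBS3-FAM135B and LINC02798-H3-7 also rose in EPZ and in combo against control. KHDRBS3-FAM135B on chromosome 8, with 113 members, had 6.73, 9.63, 10.1 and 7.93% in control, 8.21, 10.1, 11.1 and 9.35% with P38i, 18.4, 16.5, 22.2 and 23.9% with EPZ, and 14.4, 16.1, 24.2 and 23.4% with combo. The sets with and without the inhibitor did not overlap, and the desert rose by 11.7 points with EPZ and 10.9 with combo (adjusted p = 0.0199 and 0.0287, limma), or 10.8 and 7.27 with lists of equal length. The EPZ call was lost without control replicate 1, 2 or 3 or EPZ replicate 1 or 2 (highest adjusted p = 0.0708), and the combo call without control replicate 2 or 3 or combo replicate 3 or 4 (0.106). LINC02798-H3-7 spans the centromere of chromosome 1: only 24 of its 2143 distant bins held an island, and these had 2.17 to 11% in control, 10.7 to 14.4% with P38i, 14.2 to 27.2% with EPZ and 17.6 to 24.4% with combo. It rose by 12.8 points with EPZ and 13.0 with combo (adjusted p = 0.0178 and 0.0216, limma). These calls were lost without control replicate 2 or 3, the first also without EPZ replicate 1 or 3 (highest adjusted p = 0.0702) and the second without combo replicate 1 or 4 (0.0756). How well reads map there was not tested. Outside the rule for names, and chosen after their values were seen, RNF144B-ID4 and ZNF37A-ZNF33B were also higher in all 8 libraries with the inhibitor, and ARRDC3-NR2F1 was lower in all 8, with 2.38 to 7.03% against 8.27 to 18.0%.

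**Figure D5:**
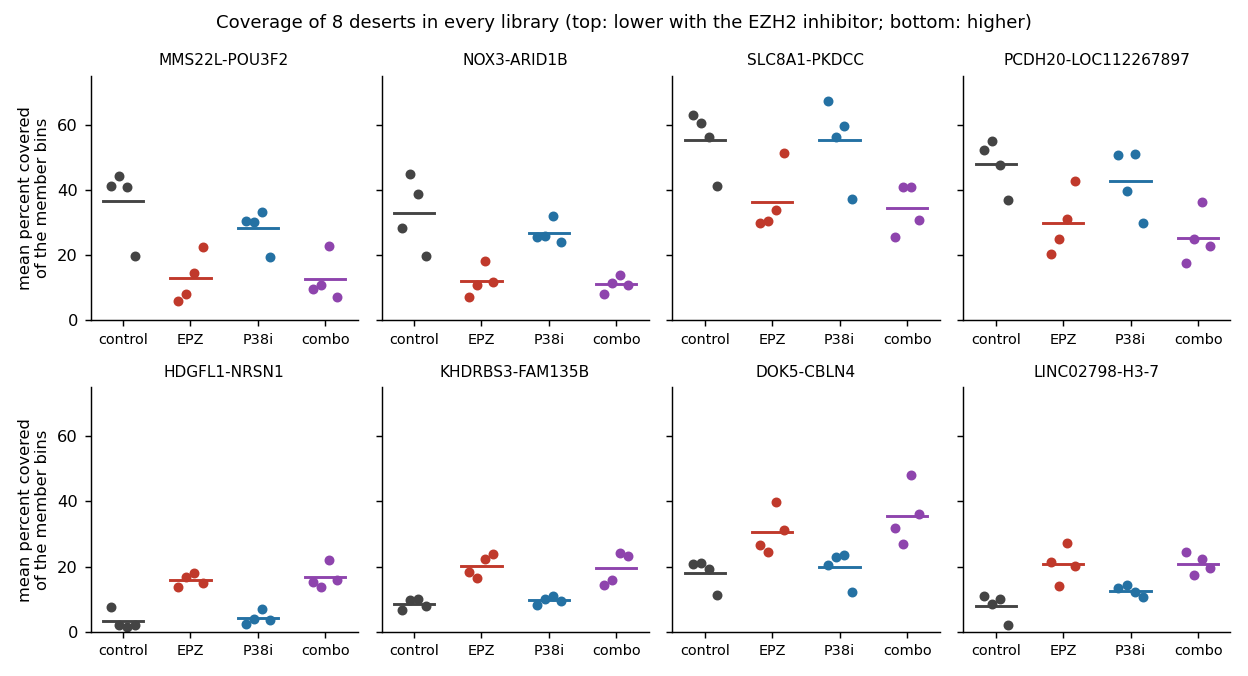
Each panel is a desert, with 4 libraries per group on the horizontal axis (replicates 1 to 4 from left to right, the bar being their mean) and the mean percent covered of its member bins on the vertical axis. In the top row EPZ and combo lie low, as in MMS22L-POU3F2 at 6.09 to 22.7% against 19.4 to 44.3% without the EZH2 inhibitor, and in the bottom row they lie high.

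The split between deserts that rose and fell moved with the length of the lists. With all lists cut to 462 Mb by keeping the widest islands, 113 deserts were tested, and the main effect called 26 higher and 6 lower, against 12.2% and 15.0% of all regions in the same fit. Of the 16 called higher in the deposited lists 10 were tested there and all 10 remained. Of the 38 called lower 26 were tested and 6 remained. The cut drops narrow islands first, and desert islands were narrower. Mean coverage went from 24.9 to 17.9% in desert bins and from 48.9 to 40.6% in the others. In deserts, control replicate 1 went from 29.1 to 16.4%, while EPZ replicate 1, the shortest list, kept 19.2%. The cut thus lowers deserts most in the long lists, and lists without the inhibitor were longer on average. Counts from cut lists are therefore not a plain correction for length. With covered length as a covariate the main effect called 35 higher and 17 lower, against 17.4% and 22.8% of all regions. These fits differ most in how many deserts fell, and the cause was not tested.

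Against control, 6 deserts were called higher with EPZ alone, against 1.07% of all regions, and 16 lower, against 13.4%. This balance turned with the length of the lists: lists of equal length gave 17 higher and 3 lower, while the covariate gave 25 higher and 10 lower. With combo 6 were higher, against 1.52%, and 8 lower, against 5.95%. There, lists of equal length gave 14 and 10, while the covariate gave 27 and 31. MDGA2-RPS29 on chromosome 14, with 80 members, was called higher with EPZ, at 9.10, 16.9, 9.45 and 7.40% in control and 18.0, 20.7, 23.2 and 34.4% with EPZ (13.4 ± 3.66 points, SE, adjusted p = 0.0235, limma). It had 13.9, 15.4, 26.9 and 17.2% with combo, which did not pass against control (7.63 points, adjusted p = 0.186, limma), and the difference between combo and EPZ did not pass (-5.74 points, adjusted p = 0.878, limma). ZPLD1-ALCAM on chromosome 3, next to the gene of a cell adhesion molecule, had 66.6, 72.5, 70.3 and 50.7% in control and 42.2, 42.9, 44.4 and 60.2% with EPZ (-17.6 ± 5.49 points, SE, adjusted p = 0.0384, limma). Its value with lists of equal length was -11.7 points and did not pass (adjusted p = 0.0651). Leaving out control replicate 1, 2 or 3 ended both calls, as did EPZ replicate 2, and for ZPLD1-ALCAM also EPZ replicate 1 or 3 (highest adjusted p = 0.0803 and 0.142). EPZ and combo share the control libraries. Their counts rested on single libraries: the 22 calls of EPZ became 7, 0, 3 and 56 without control replicate 1, 2, 3 and 4, and 5, 3 and 8 without EPZ replicate 1, 2 and 3. The 14 calls of combo became 0, 0 and 47 without control replicate 2, 3 and 4, 4 and 2 without combo replicate 1 and 4, and 24 without P38i replicate 4.

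No desert was called with P38i against control, nor in any direction among all regions (0% higher and 0% lower), and 4 of 150 deserts had an unadjusted p under 0.05 (limma), or 2.67% against 9.39% of all regions. The 3 with the smallest p were MAP3K7-LOC124901495 (-7.2 ± 2.86 points, SE, adjusted p = 0.429), RPIA-LOC124905368 (10.9 ± 4.9 points, adjusted p = 0.484) and NEGR1-LRRIQ3 (9.23 ± 3.86 points, adjusted p = 0.478). Combo against EPZ called no desert either, against 0.0447% of all regions higher and 0% lower, with 1 of 150 at an unadjusted p under 0.05, or 0.667% against 3.0% of all regions. The 3 with the smallest p were CTNND2-DNAH5, LZTS1-GFRA2 and POTEA-LOC105375816, at 10.3, 15.0 and -8.19 points (adjusted p = 0.878 each, limma). Combo against P38i called 3 deserts higher, HDGFL1-NRSN1, DOK5-CBLN4 and KHDRBS3-FAM135B, against 0.581% of all regions, and 3 lower, SLC8A1-PKDCC, NOX3-ARID1B and KCNJ3-NR4A2, against 5.81%. With lists of equal length 11 were higher and 0 lower: SLC8A1-PKDCC and NOX3-ARID1B did not pass (adjusted p = 0.396 and 0.276), and KCNJ3-NR4A2 was not tested. With the covariate 19 were higher and 5 lower. These 6 became 0 without P38i replicate 1, 2 or 3, 24 without P38i replicate 4, 1 without combo replicate 1, 2 or 4, 18 without control replicate 4, 3 without control replicate 3 or EPZ replicate 2 or 3, and 10 without control replicate 1 or EPZ replicate 4. The effect of the EZH2 inhibitor was not detectably different with and without the p38 inhibitor in any desert: no interaction passed, with 2 of 150 at an unadjusted p under 0.05 (limma).

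At the scale of single bins little passed. Of 87441 bins with a mean from 5 to 95%, 5900 were desert bins; 2953 members lay below that range and 196 above it. The main effect of the EZH2 inhibitor called 8 desert bins higher and 57 lower, against 1.21% of all bins tested in both directions. These 65 bins lay in 39 deserts, with 6 lower bins each in NUDT12-EFNA5 and PCDH20-LOC112267897, 5 in ZPLD1-ALCAM and 4 in MMS22L-POU3F2. The bin with the largest fall, chr13:62420001-62430000 in PCDH20-LOC112267897, was covered over 100, 66, 100 and 84% in control and 72, 88, 100 and 70% with P38i. It had 40, 24, 8 and 22% with EPZ and 0, 0, 18 and 0% with combo (-71 ± 9.6 points, SE, adjusted p = 0.00438, limma). In MMS22L-POU3F2, chr6:98030001-98040000, next to the bin that holds MIR2113, had 34, 92, 68 and 64% in control, 18, 26, 76 and 24% with P38i and no island in any of the 8 libraries with the inhibitor. In NUDT12-EFNA5, chr5:104530001-104540000 had 26 to 86% without the inhibitor, and with it 0% in 7 libraries and 4% in EPZ replicate 4. The bins chr4:159950001-159960000 in RAPGEF2-FSTL5 and chr7:109510001-109520000 in DNAJB9-IMMP2L fell by 57.5 and 39.8 points. None of these 5 calls passed with lists of equal length (adjusted p from 0.0748 to 0.414), and no desert bin did.

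The count of 65 moved with single libraries. It was 136, 122 and 106 without control replicate 4, EPZ replicate 4 and P38i replicate 4. It was 37, 19 and 18 without control replicate 1, 2 and 3, 27 and 31 without EPZ replicate 1 and 2, 14, 27 and 19 without P38i replicate 1, 2 and 3, and 23 and 25 without combo replicate 1 and 4. The other comparisons called next to no bin. EPZ against control called 0 desert bins (0.00343% of all bins), with 828 of 5900 at an unadjusted p under 0.05 (14.0%, against 12.6% of all bins), and 23 with limma's trend and robust options off. P38i against control called 0 (0%), with 312 at an unadjusted p under 0.05 (5.29%, against 5.35%). Combo called 2 lower against control (0.0114%), 0 against EPZ (0.00114%, with 375 or 6.36% at an unadjusted p under 0.05, against 6.08% of all bins) and 0 against P38i (0.00229%, with 596 or 10.1% at an unadjusted p under 0.05, against 10.0%). The 2 calls of combo against control went to 16 without control replicate 4, to 4 without combo replicate 3 and to 0 or 1 in 13 of the other 14 omissions. Without combo replicate 1 or 2 the 1 bin called was higher, so both lower calls were lost.

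Whole bins seldom switched. A lost bin had coverage of 50% or more throughout the reference group of a comparison and in no library of the other group, and a gained bin the reverse. Against control, EPZ lost 37 desert bins (0.445% of all covered bins were lost) in 28 deserts and gained 2 (0.0295% of all). P38i lost 4 (0.0211%) and gained 1 (0.116%). Combo lost 29 (0.287%) in 18 deserts and gained 6 (0.12%). Combo against EPZ lost 6 (0.0219%) and gained 6 (0.15%), and against P38i lost 21 (0.352%) and gained 8 (0.0734%). With 9049 members, the losses with EPZ and combo come to 0.409% and 0.320% of desert bins, near the shares over all bins. With 3 libraries in a group the condition is easier to meet, and every omission of 1 library raised these counts.

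The 10 deserts with the most members differed in their response. OTOL1-SI and IGFBP7-LOC124900173 held 169 members each, LOC105372073-PIK3C3 166, ZPLD1-ALCAM 143, JRKL-CNTN5 139, GATA3-CELF2 137, SLC10A2-DAOA 132, ZNF337-LOC124904970 129, AMY1C-PRMT6 126 and NUDT12-EFNA5 122. GATA3 encodes a luminal transcription factor, PIK3C3 a lipid kinase of autophagy and EFNA5 a ligand of Eph receptors. NUDT12-EFNA5 fell, from 28.4, 38, 37.3 and 21.6% in control to 13.7, 11.7, 11 and 23.2% with EPZ and 10.8, 14.6, 21.8 and 10.3% with combo (main effect -14.7 ± 3.15 points, SE, adjusted p = 0.00151, limma). OTOL1-SI and IGFBP7-LOC124900173 fell by 7.38 and 5.38 points (adjusted p = 0.0442 and 0.0477, limma). GATA3-CELF2, at 26.7, 39.0, 32.1 and 18.9% in control and 16.4, 17.4, 22.4 and 26.0% with EPZ, did not pass (-5.24 ± 2.95 points, SE, adjusted p = 0.158, limma). LOC105372073-PIK3C3, JRKL-CNTN5 and ZNF337-LOC124904970 had main effects of 1.49, 2.72 and 5.45 points that did not pass (adjusted p = 0.658, 0.397 and 0.108, limma). SLC10A2-DAOA, the most covered of the 10 at 49.8 to 73.2% in control, had -8.05 ± 3.56 points (SE, adjusted p = 0.0743, limma).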

How the data were processed

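H3K27me3 ChIPmentation was done on MDA-MB-231 cells in 4 groups of 4 libraries. The authors deposited 1 list of islands per library, which gives where every island starts and ends in hg38 coordinates and no value (unit other). Per the submitters' processing notes the tools include SICER, a caller of broad islands, beside Bowtie2 2.3.4.1, SAMtools 1.2, bedtools 2.28.0, Picard and the read trimming tools cutadapt and Trim Galore. No settings appear in the labels. Islands are made of 200-bp windows and lie at least 800 bp apart, and replicates were not pooled. Calling may depend on depth, which the lists do not hold, so the covered percent of a bin can move with it. How well reads map was not tested for any bin, desert or promoter.

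From these lists the percent of each 10-kb bin covered was computed in Python 3.11.15 with numpy 2.4.6 and pandas 2.3.3, and checked with bedtools 2.31.1 on 500 bins (largest difference 0). Distances were taken to 18973 protein-coding genes of the RefSeq GRCh38.p14 table, without 153 listed on alternate or unplaced scaffolds. No genome was used, so no island sequence is given. Sequences are from RefSeq.

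Bins with a mean from 5 to 95% and, separately, regions (deserts of at least 10 members, and 1-Mb windows of other covered bins) were tested with limma 3.58.1 in R 4.3.3 (trend and robust options, all 16 libraries in 1 fit, 2-sided), with Benjamini-Hochberg adjustment over all features in each comparison and a threshold of 0.05. The script was tested on simulated data. Same-numbered libraries of different groups did not deviate together (correlations -0.0686 to 0.0856 over 24 pairs), so no replicate block was used.

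Named regions were the 10 deserts with the most members, the 5 highest and 5 lowest in control among deserts of at least 20 members, up to 5 called deserts (or the 3 with the smallest p) and up to 5 called bins without overlap per direction and comparison, and non-coding genes in them. Some deserts of the sequences shown, among them NEDD1-TMPO and USP25-CXADR, lie outside this rule. The members and lists were chosen with earlier results of these data known. Alternatives were other bin sizes, distances, filters, transformations and fits, lists of equal length (the widest islands up to 462 Mb), covered length as a covariate, the replicate block, and leaving out each library. The 16 IgG libraries were not analysed here. A gene of the marker list is not reported here.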

Additional observations from a re-analysis of the deposited data

Results flagged for a closer look

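In 11 of 172 sets of 4 libraries, 1 library stood apart from the other 3 of its group by Dixon's criterion, and chance alone gives about 1 in 20. Control replicate 4 was low in 3 deserts: MMS22L-POU3F2 had 19.7% there against 41.0 to 44.3% in the other control libraries, SLC10A2-DAOA 49.8% against 70.5 to 73.2%, and RWDD3-PTBP2 84.8% against 93.0 to 94.6%. This library also had the shortest list of its group, 473 Mb, and the part of that in these values was not tested. EPZ replicate 4 was high in ZPLD1-ALCAM, at 60.2% against 42.2 to 44.4%, and in NDST4-TRAM1L1, at 37.2% against 18.1 to 20.3%. Its list of 571 Mb was the longest of the EPZ group. KCNJ3-NR4A2 had 8.1% in EPZ replicate 3 against 3.05 to 3.52%.

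Among sparsely covered deserts, HDGFL1-NRSN1 had 7.68% in control replicate 1 against 1.44 to 2.08% in the other control libraries. AMY1C-PRMT6 had 2.0% in combo replicate 1 against 5.14 to 5.48%. CHORDC1-FAT3 and ZNF716-LOC124901649 had 0.392% and 1.64% in P38i replicate 4 and no island in the other 3 P38i libraries. The number of islands in deserts was 4366 in EPZ replicate 1 against 3367 to 3490 in the other EPZ libraries, and that library had the narrowest desert islands, with a median of 2.8 kb.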

How the results depend on the processing

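No value with a call changed direction. For the 42 results on named deserts, 535 of 672 omissions of 1 library kept the side of the threshold and 137 lost the call, and 110 of 123 other alternatives kept it. Calls of desert bins were less stable. The main effect of the EZH2 inhibitor called 65, and 37 without the filter on mean coverage, 147 with 50-kb bins, 157 and 11 beyond 250 and 1000 kb, 118 with the arcsine scale, 3 with covered length as a covariate, 0 with lists of equal length and 107 with limma's trend and robust options off. EPZ against control called 0, and 1, 18, 5 and 23 without the filter, with 50-kb bins, the arcsine scale and those options off. Combo against control called 2, and 4 without the filter, 14 with 50-kb bins, 1 beyond 1000 kb, 1 with the covariate, 0 with lists of equal length, 0 in a fit of the groups compared and 16 with those options off. P38i against control called 1 without the filter, and combo against P38i 1 without the filter, 1 with 50-kb bins and 2 with those options off.

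Leaving out 1 library gave 14 to 136 called bins for the main effect, 0 to 34 for EPZ, 0 to 1 for P38i and 0 to 16 for combo against control, 0 to 1 for combo against EPZ and 0 to 2 against P38i. Called deserts ran from 38 to 76, 0 to 56, 0 to 0, 0 to 47, 0 to 0 and 0 to 24 in the same order. Bins gained or lost ran from 48 to 119 for EPZ, 11 to 33 for P38i, 51 to 110 for combo, and 22 to 33 and 38 to 68 for combo against EPZ and P38i. The difference in mean coverage ran from -5.49 to -1.64 points for EPZ, -3.05 to 1.14 for P38i, -4.81 to -1.03 for combo and -3.41 to -1.75 for the main effect.

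The following were chosen after seeing the data. With lists of equal length, 32 deserts were called in the main effect, 24 in combo against control and 11 against P38i, and the bins gained or lost were 9 for P38i, 22 for combo and 18 for combo against P38i. With the covariate 35, 58 and 24 deserts were called for EPZ, combo and combo against P38i. Desert minus other coverage was -17.3 points beyond 250 kb and -28.2 beyond 1000 kb. The causes were not tested. The fit of the groups compared was not run for the main effect, which uses all groups. Read depth is unknown and limits every value.

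With the replicate block, the main effect called 42 desert bins, combo against control 0, and combo against P38i 3 deserts. The numbers were not found to pair the libraries.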
